A study of Harpegnathos saltator with 35 samples.

Results

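Ant neuronal cultures that had been kept in 20-hydroxyecdysone (20E, the steroid that drives insect moulting) and then given juvenile hormone III (JH3) for a day were compared with cultures left at their 20E baseline. Libraries were chosen by their labels and by no measured value: 8 of the 35 in the study, 3 from 20E cultures given JH3 for 24 h and 5 from the 20E baseline. The cells came from dissociated central brains of Harpegnathos saltator and were kept for 5 days in 2 µM 20E, with a honeybee pupal extract for the first 4 days. The medium was then replaced by one holding 2 µM JH3 for 24 h, or, in the baseline, by one holding DMSO, the solvent, for 30 min. The JH3 cultures therefore also spent 24 h without 20E and longer in changed medium, so added JH3, withdrawn 20E and elapsed time cannot be told apart. Also used were 3 libraries of 20E cultures given JH3 for 30 min, 5 given it for 6 h, and the mirror switch, with 4 libraries of JH3 cultures given 20E for 24 h and 4 of the JH3 baseline. Of 14001 genes, the 9873 with a level of at least 1 FPKM (fragment counts scaled by the length of each gene and the size of each library) in at least 3 libraries were tested.

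Juvenile hormones are sesquiterpenoids made by the corpora allata, and they act in insects through the receptor Methoprene-tolerant, which with its partner Taiman switches on genes such as Krüppel homolog 1. 20E acts through the ecdysone receptor and ultraspiracle, which induce a cascade of nuclear receptors and other early genes. In Harpegnathos, workers that become reproductive gamergates shift from a high juvenile hormone state to a high ecdysteroid state, and the brain is among the organs that change with caste.

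The 8 libraries held 6989643 to 14907394 reads assigned to genes, and 8902 to 9187 genes stood at 1 FPKM or more in each. The 3 JH3 24 h libraries all came from the third of 3 sequencing runs, which held only replicate 4 of the 20E baseline. That baseline library stood apart, with ribosomal protein genes summing to 2242 FPKM, against 3763 to 7408 FPKM in the other 4 baseline libraries. Both neuronal and glial markers were detected in all 8 libraries: nSyb, a synaptic vesicle protein, lay at 89, 95.5 and 101 FPKM in JH3 24 h libraries and at 77.6, 78.6, 66.8, 73.4 and 77.9 FPKM in 20E baseline libraries. The glial factor repo lay at 13.4, 19.5 and 17 FPKM in JH3 24 h libraries and at 10.4, 8.54, 16.6, 11 and 16.4 FPKM in 20E baseline libraries. In such bulk RNA fewer cells of a type and less RNA per cell cannot be told apart.

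After 24 h of JH3, 24 of 9873 genes (0.243%) passed the test at an adjusted p under 0.05 (limma on log2(FPKM + 1) with group and run as terms, Benjamini-Hochberg adjustment), 20 of them higher (0.203%) and 4 lower (0.0405%). With the replicate number as a block, 15 genes passed, 14 higher and 1 lower, and 14 of these were among the 24. The 20 risen genes had log2 fold changes between 0.52 and 2.62, and 16 of them reached at least 1. The 4 fallen genes had log2 fold changes between -0.74 and -0.43. Each of the 20 had all 3 JH3 24 h libraries above all 5 baseline libraries, which held for 346 of all genes tested (3.50%). Each of the 4 had all 3 below all 5, which held for 314 (3.18%). The count moved with single libraries: it was 12 without JH3 24 h replicate 2, 15 without 20E baseline replicate 1, 42 without 20E baseline replicate 5 and 54 without JH3 24 h replicate 1. Fitted on these 8 libraries alone it was 7 without a run term and 0 with one, where 2709 genes had an unadjusted p under 0.05. With limma's voom on reads recovered from the FPKM steps 24 genes were called, of which 21 were among the 24 above. Within the third run, where the baseline is replicate 4 alone, changes were 0.38 to 2.32 for the risen and -1.01 to -0.50 for the fallen genes. Their signs follow from the separated groups just given, so they are no further check of the calls. Named risen genes are 9 with a symbol and LOC105192299, listed by the naming rule; the other risen and fallen genes are known by number only, and those described below by number were chosen after their values were seen.

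**Figure D1:**
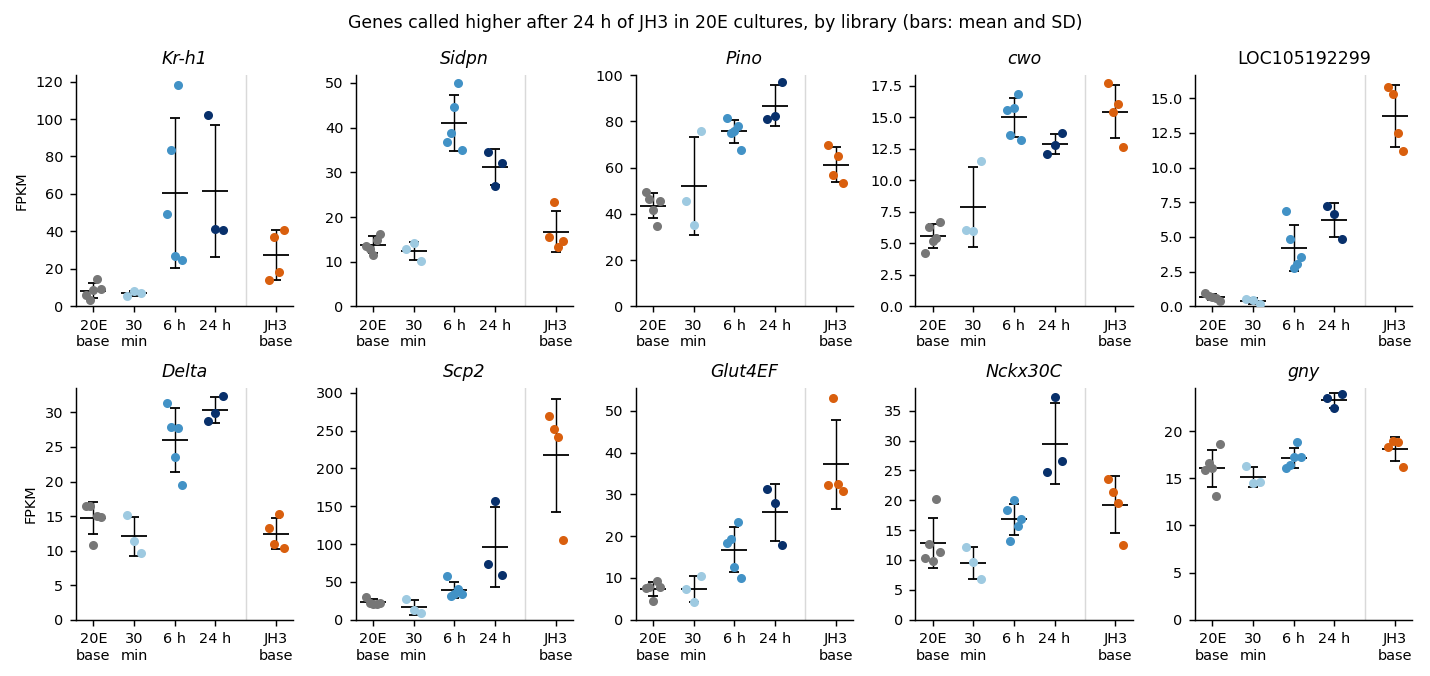
FPKM in each library (points) with the mean and SD (black) for 10 genes called higher after 24 h of JH3; groups run from the 20E baseline through 30 min, 6 h and 24 h of JH3, with the JH3 baseline set apart on the right. Kr-h1, Sidpn, Pino, cwo and LOC105192299 were also called higher at 6 h. Among the 20E cultures, Sidpn and cwo have their highest mean at 6 h, and the other genes shown have theirs at 24 h. The means of Kr-h1 at 6 h and 24 h nearly met, at 60.5 and 61.3 FPKM.

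Kr-h1 (LOC112589664), a zinc finger factor induced by juvenile hormone, lay at 102, 41.5 and 40.8 FPKM in JH3 24 h libraries, against 6.06, 3.26, 8.78, 14.5 and 9.41 FPKM in 20E baseline libraries. The groups did not overlap, and replicate 1 of JH3 24 h was the highest of its group. Its log2 fold change was 2.62 ± 0.46 (SE; adjusted p = 0.00397). Within the third run the change was 1.87 with an adjusted p of 0.137, where the single baseline library was the highest of the 5 baseline values.

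Sidpn, whose name marks similarity to the repressor Deadpan, lay at 34.6, 26.9 and 32.1 FPKM in JH3 24 h libraries, against 13.6, 12.8, 11.5, 14.9 and 16.3 FPKM in 20E baseline libraries (log2 fold change 1.04 ± 0.18 SE, adjusted p = 0.00395). The clock repressor cwo, clockwork orange of flies, lay at 12.1, 12.8 and 13.7 FPKM in JH3 24 h libraries, against 4.25, 6.29, 5.21, 5.38 and 6.65 FPKM in 20E baseline libraries (1.01 ± 0.18, adjusted p = 0.00397). For both genes every JH3 24 h library lay above every baseline library.

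Of the 6 clock genes tested, cwo alone was called, beside 0.243% of all genes tested. The other 5 had log2 fold changes between -0.15 and 0.79, with per at 0.79 (adjusted p = 0.172); its levels were 1.83, 2.13 and 1.02 FPKM in JH3 24 h libraries and 0.815, 0.542, 0.517, 0.731 and 0.433 FPKM in 20E baseline libraries. The median of the 6 was 0.12, against 0.01 for all genes tested. Of the 5 genes of the juvenile hormone list tested, 3 rose and none fell, with a median of 1.01, beside 0.203% of all genes risen and 0.0405% fallen. Of these 3, Sidpn and Pino had been placed in the list with earlier results of these data known, so that count is no independent evidence of direction. The other 2 were Fkbp39 at -0.27 (adjusted p = 0.647) and Chd64 at 0.19 (0.792).

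Pino, a gene whose role is not described here, lay at 81.2, 82.4 and 97.0 FPKM in JH3 24 h libraries, against 49.3, 46.4, 41.9, 34.8 and 45.7 FPKM in 20E baseline libraries. Its log2 fold change was 1.01 ± 0.17 (SE, adjusted p = 0.00378), with no overlap between the groups. The uncharacterised LOC105192299 had the smallest p of all genes, adjusted p = 7.00e-10, at 2.32 ± 0.17. It lay at 7.25, 6.62 and 4.88 FPKM in JH3 24 h libraries, against 0.993, 0.743, 0.667, 0.580 and 0.365 FPKM in 20E baseline libraries. Among the JH3 baseline libraries it was higher still, between 11.2 and 15.8 FPKM, so its 3 JH3 24 h values lay below all 4 of those, unlike those of any other risen gene.

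Scp2, a sarcoplasmic calcium-binding protein, lay at 74, 157 and 58.8 FPKM in JH3 24 h libraries, against 30.2, 22.1, 20.4, 21.4 and 21.5 FPKM in 20E baseline libraries (log2 fold change 2.03 ± 0.35 SE, adjusted p = 0.00378). Its replicate 2 was the highest and is needed for the call: without it the change was 1.62, with an adjusted p of 0.0693. Nckx30C, a potassium-dependent sodium-calcium exchanger, lay at 24.7, 37.3 and 26.5 FPKM in JH3 24 h libraries, against 10.3, 12.6, 9.84, 20.2 and 11.4 FPKM in 20E baseline libraries (1.05 ± 0.22, adjusted p = 0.0255).

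The 3 JH3 24 h libraries of Nckx30C lay above all 5 baseline values, of which replicate 4, from the same run, was the highest. The call of Nckx30C was lost without 20E baseline replicate 1 (adjusted p = 0.0737) or 3 (0.0604) and without JH3 24 h replicate 2 (0.315) or 3 (0.0594), and within the third run its change was 0.50 (0.233). Glut4EF, the fly name for a transcription factor, lay at 31.2, 28.0 and 18 FPKM in JH3 24 h libraries, against 7.63, 7.76, 4.47, 9.19 and 7.82 FPKM in 20E baseline libraries (1.58 ± 0.31 SE, adjusted p = 0.0127). Without JH3 24 h replicate 1 its adjusted p was 0.0542, without replicate 2 0.108, and with the replicate block 0.131, at a log2 fold change of 1.39; within the third run it was 1.36 (adjusted p = 0.0630). The blocked values of Nckx30C and gny also missed the threshold, at 0.93 and 0.50, each with an adjusted p of 0.151.

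Delta, a symbol used in flies for the Notch ligand, lay at 28.8, 29.9 and 32.4 FPKM in JH3 24 h libraries, against 16.5, 16.4, 10.8, 15 and 14.9 FPKM in 20E baseline libraries. Its log2 fold change was 1.12 ± 0.20 (SE, adjusted p = 0.00397), and the groups did not overlap. A second gene has the symbol Dl, also used for that ligand; it was not called, at -0.50, and which is the fly gene's counterpart was not settled. The smallest named rise was that of gny, a glucosyltransferase of glycan assembly, at 0.52 ± 0.11 (SE, adjusted p = 0.0254). Its 3 JH3 24 h libraries lay between 22.4 and 23.9 FPKM, and the 5 of the 20E baseline between 13.1 and 18.6 FPKM. Its call was lost when each of the 3 JH3 24 h libraries was left out (adjusted p = 0.0522, 0.0855 and 0.116 without replicates 1, 2 and 3) and without 20E baseline replicate 1 (0.0532) or 4 (0.143).

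Further risen genes are known by number only. LOC105185491 lay at 26.5, 30.3 and 21.9 FPKM in JH3 24 h libraries, against 8.40, 9.17, 8.80, 7.13 and 10.8 FPKM in 20E baseline libraries (1.49 ± 0.21 SE, adjusted p = 0.000643). LOC105192351 lay at 13.7, 14.9 and 11.6 FPKM in JH3 24 h libraries, against 4.76, 4.65, 4.88, 6.89 and 6.22 FPKM in 20E baseline libraries (1.09 ± 0.17 SE, adjusted p = 0.00114). LOC112590514 lay at 6.62, 1.91 and 6.90 FPKM in JH3 24 h libraries, with replicate 2 the low value of the group, against 0.0987 to 0.757 FPKM in 20E baseline libraries (2.18 ± 0.36 SE, adjusted p = 0.00239). The 3 JH3 24 h values of each stood above all its baseline values.

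The other numbered genes that rose spanned low to high levels. LOC105180825 lay at 7, 8.47 and 5.53 FPKM in JH3 24 h libraries, against 0.384 to 0.859 FPKM in 20E baseline libraries, with a log2 fold change of 2.09 (adjusted p = 0.00217). LOC105186631, the most abundant, lay at 128, 139 and 127 FPKM in JH3 24 h libraries and at 61.4 to 100 FPKM in 20E baseline libraries, with a change of 0.78 (adjusted p = 0.00934). LOC105192706 lay at 80.6, 67.4 and 117 FPKM in JH3 24 h libraries and at 21.9 to 37.4 FPKM in 20E baseline libraries (1.48, adjusted p = 0.0319). In all 3 genes the groups were apart. LOC105190298 lay at 12.6, 19.3 and 11.8 FPKM in JH3 24 h libraries and at 2.78 to 5.95 FPKM in 20E baseline libraries (1.40, adjusted p = 0.0402), and LOC105180572 and LOC105185673 were at 1.07 (0.00640) and 0.94 (0.0406). With the replicate block LOC105192706, LOC105190298, LOC105186388 and LOC105185673 were no longer called. LOC105186631 lost its call with quantile normalization (0.58, adjusted p = 0.143) and without JH3 24 h replicate 2 (0.74, 0.0855). Within the third run its change was 0.38. Of 8 fits that each left out 1 library, LOC105192706, LOC105190298 and LOC105185673 were each called in 3. LOC105180572 was called in 7 of those fits and LOC105180825 in all 8.

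The 4 fallen genes have no symbol. LOC105184447, a long noncoding RNA by the reference annotation, lay at 2.52, 2.63 and 2.69 FPKM in JH3 24 h libraries, against 4.82, 3.65, 4.24, 5.66 and 4.04 FPKM in 20E baseline libraries (-0.62 ± 0.13 SE, adjusted p = 0.0168). LOC112589748, annotated as a pseudogene, lay at 5.82, 6.13 and 6.4 FPKM in JH3 24 h libraries, against 10.9, 9.55, 9.57, 13.3 and 7.90 FPKM in 20E baseline libraries (-0.70, adjusted p = 0.0292); reads shared with a related gene were not examined. The groups were apart in each gene, and 20E baseline replicate 4 was the highest library of both. LOC105181341 and LOC112589038 fell by 0.43 and 0.74 on the log2 scale (adjusted p = 0.0292 and 0.0436). Of 8 fits that each left out 1 library, LOC105184447 and LOC105181341 were each called in 4, LOC112589748 in 3 and LOC112589038 in 1. The count of fallen genes was 0 without 20E baseline replicate 1, without its replicate 4 and without JH3 24 h replicate 2. In those fits the counts of risen genes were 15, 16 and 12. With the replicate block LOC112589748 alone of the 4 was called.

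**Figure D2:**
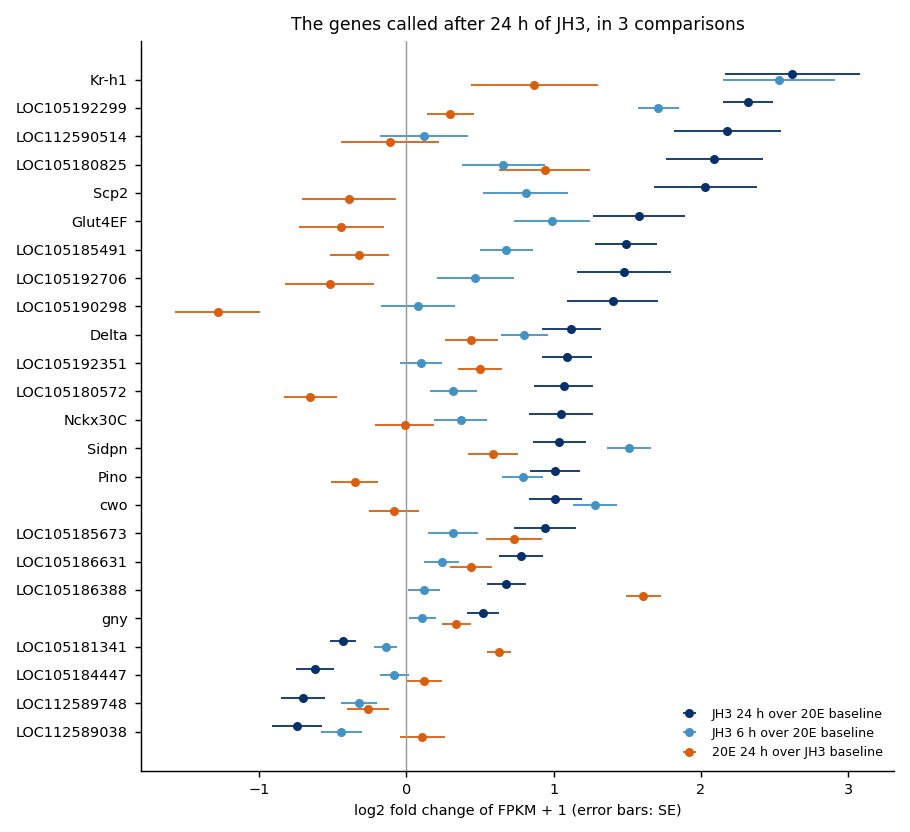
Log2 fold changes of FPKM + 1 with their SE for the 24 genes called after 24 h of JH3, in 3 comparisons: 24 h of JH3 over the 20E baseline, 6 h of JH3 over the same baseline, and the mirror switch of 24 h of 20E over the JH3 baseline. Kr-h1, LOC105192299, Sidpn, Pino and cwo had positive log2 fold changes from 0.79 to 2.53 at 6 h, while LOC105192351, LOC112590514 and LOC105190298 lay near 0 at 6 h.

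The time in JH3 was compared next. At 6 h, 5 genes of 9873 passed (0.0506%), all higher, and all 5 were among the risen genes at 24 h: Kr-h1, Pino, Sidpn, cwo and LOC105192299. Both comparisons share the 20E baseline libraries, so that overlap is not independent. At 6 h their log2 fold changes were 2.53 ± 0.38 for Kr-h1, 1.71 ± 0.14 for LOC105192299, 1.51 ± 0.15 for Sidpn, 1.28 ± 0.15 for cwo and 0.79 ± 0.14 for Pino (SE, against the 20E baseline). The test of 24 h against 6 h called none of these 5, with differences of 0.09 for Kr-h1, -0.48 for Sidpn, -0.27 for cwo, 0.22 for Pino and 0.61 for LOC105192299. A p that misses the threshold does not show that the times act alike. Of all genes, 2 (0.0203%) were called higher at 24 h than at 6 h and none lower, with 493 higher and 462 lower at an unadjusted p under 0.05; voom on recovered reads called none lower, while a pseudocount of 0.5, a filter within the compared libraries, median-ratio rescaling, no run term, 2 sets of runs and leaving out JH3 24 h replicate 1 or JH3 6 h replicate 4 each called 1 lower.

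The 2 were LOC105192351 and LOC112590514. LOC105192351 lay at 13.7, 14.9 and 11.6 FPKM at 24 h, against 5.90, 6.16, 5.85, 7.19 and 4.91 FPKM at 6 h (difference 0.99 ± 0.16 SE, adjusted p = 0.00577). LOC112590514 lay at 6.62, 1.91 and 6.90 FPKM at 24 h, against 0.132 to 1.04 FPKM at 6 h (2.06 ± 0.34, adjusted p = 0.00577). Within the third run, with 3 libraries a time, neither passed, at 1.05 (adjusted p = 0.185) and 1.90 (0.417). Without JH3 24 h replicate 2 LOC105192351 was at 0.92 (adjusted p = 0.0941), and without replicate 3 LOC112590514 was at 1.81 (0.157). Without JH3 24 h replicate 1 the count over all genes was 32, and without replicate 2 or 3 it was 1.

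None of the 18 ecdysone response genes tested was called after a day without 20E, where 0.243% of all genes were, and nothing is read from that count. Of the 18, 3 had an unadjusted p under 0.05, which 1159 of all 9873 genes had (11.7%), 12 had log2 fold changes above 0, and the median was 0.14. In 4 of the 18, all 3 JH3 24 h libraries lay above all 5 baseline libraries, against 3.50% of all genes, and in none did they lie below. Of these 4, Hr38, an orphan nuclear receptor, lay at 26.3, 24.9 and 25.6 FPKM in JH3 24 h libraries, against 13.7, 14.7, 5.91, 14.1 and 11.3 FPKM in 20E baseline libraries. The nuclear receptor ftz-f1 lay at 16.2, 15.1 and 12.9 FPKM in JH3 24 h libraries, against 7.19, 5.92, 4.95, 11.9 and 7 FPKM in 20E baseline libraries. The others were the ecdysteroid importer Oatp74D, at 24.3 to 41.0 FPKM in JH3 24 h libraries and 6.42 to 21.3 FPKM in 20E baseline libraries, and the receptor DopEcR, at 54.8 to 59.8 FPKM in JH3 24 h libraries and 35.7 to 52.2 FPKM in 20E baseline libraries. E75, a nuclear receptor that the steroid induces, lay at 69.2, 117 and 78.8 FPKM in JH3 24 h libraries, against 94.3, 85.1, 61.9, 68.0 and 86.2 FPKM in 20E baseline libraries (log2 fold change 0.08 ± 0.27 SE, adjusted p = 0.949). Its groups overlapped. The nuclear receptor Hr4 lay at 74.2, 109 and 64.5 FPKM in JH3 24 h libraries and at 104, 84.5, 30.7, 125 and 61.3 FPKM in 20E baseline libraries, also overlapping (0.17 ± 0.51, adjusted p = 0.943). In the JH3 baseline Hr4 lay between 1.63 and 7.46 FPKM, below all 3 JH3 24 h libraries.

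**Figure D3:**
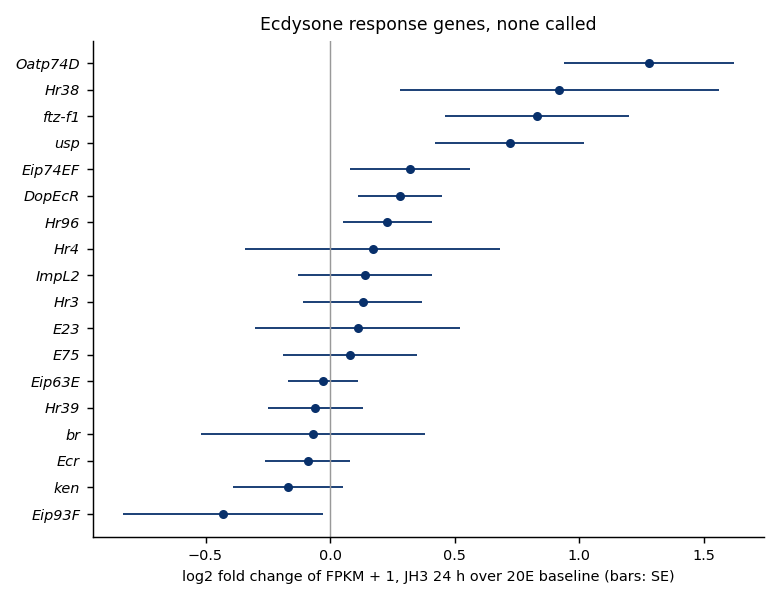
Log2 fold changes of FPKM + 1 with their SE for the 18 ecdysone response genes tested, JH3 24 h over 20E baseline. None passed the test; Oatp74D, Hr38, ftz-f1 and usp lie furthest to the right and Eip93F to the left.

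The receptor genes were not called either. Ecr, the ecdysone receptor, was at -0.09 (adjusted p = 0.900) and its partner usp at 0.72 (0.335), with 15.1, 20.0 and 12.7 FPKM in JH3 24 h libraries and 9.86, 9.09, 4.74, 14.2 and 7.44 FPKM in 20E baseline libraries. Eip74EF was at 0.32, br at -0.07, Hr3 at 0.13, Hr39 at -0.06, Eip93F at -0.43, E23 at 0.11 and Hr38 at 0.92, with adjusted p between 0.607 and 0.973. Within the third run Hr3, Hr4 and E23 were below 0, at -0.49, -0.63 and -0.53. The log2 fold change of ftz-f1 was 0.83 (adjusted p = 0.369) and that of Oatp74D 1.28 (0.123). Crz, the neuropeptide corazonin, lay at 0.462, 0.628 and 0.0973 FPKM in JH3 24 h libraries and at 0 to 0.779 FPKM in 20E baseline libraries (0.06, adjusted p = 0.982).

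Whether the switches differed was tested directly, as the change at 24 h of JH3 minus the change at 24 h of 20E. Of 9873 genes, 298 (3.02%) differed, 155 upward (1.57%) and 143 downward (1.45%), and without JH3 24 h replicate 3 the count was 195. After 24 h of 20E itself 515 genes (5.22%) were called, 314 higher (3.18%) and 201 lower (2.04%), of which 4 and 2 were among the 20 risen genes. Of the 20 risen genes 11 differed upward, 1 downward and 8 were not called, and 3 of the 4 fallen genes differed downward. The difference contains the change by which these genes were chosen, which leans it the same way, so these counts are a description only. Scp2 was among the 11, with a difference of 2.42 ± 0.45 (SE, adjusted p = 0.00124): 2.03 after JH3 and -0.39 after 20E. Kr-h1 was not called for a difference (1.75 ± 0.60 SE, adjusted p = 0.130), at 2.62 after JH3 and 0.87 after 20E. Sidpn was not either (0.45 ± 0.23, adjusted p = 0.363), and after 20E it was itself called higher, at 0.59 ± 0.17 (adjusted p = 0.0340). The 1 downward gene, LOC105186388, rose by 0.68 after JH3 and by 1.61 after 20E.

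Of the 18 ecdysone response genes 9 were called for a difference between the switches, 2 upward and 7 downward, against 1.57% and 1.45% of all genes. The list names genes of the 20E response, and the difference contains the change after 20E. The list was also chosen with earlier results of these data known, so this count is a description only. E75 differed by -3.36 ± 0.35 (SE, adjusted p = 7.61e-07), 0.08 after JH3 and 3.44 after 20E. E23, an ABC transporter gene of the early response, differed by -3.70 (adjusted p = 6.59e-05), 0.11 after JH3 and 3.82 after 20E. Hr4 differed by -3.16 (adjusted p = 0.00478), 0.17 after JH3 and 3.32 after 20E. The others downward were Hr39 at -1.52 (adjusted p = 3.17e-04), Hr3 at -1.46 (0.00619), Eip74EF at -1.21 (0.0239) and Eip63E at -0.66 (0.0462). Upward differences were seen for ftz-f1, at 2.64 ± 0.48 (adjusted p = 0.00103), 0.83 after JH3 and -1.81 after 20E. For usp it was 2.00 ± 0.39 (adjusted p = 0.00210), 0.72 after JH3 and -1.28 after 20E. Among the 9 not called, Ecr was at 0.43 (adjusted p = 0.351), br at -0.08 (0.957), Hr38 at 0.52 (0.788) and Eip93F at -1.72 (0.0648). The changes after JH3 and after 20E share no libraries.

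The risen genes can be placed beside the JH3 baseline, with which the JH3 24 h group shares no run, so this is a description only, of genes chosen for being higher than in the 20E baseline. For 12 of 20 all 3 JH3 24 h libraries lay above all 4 JH3 baseline libraries, which held for 12.1% of all genes tested, among them Kr-h1, Sidpn, Pino, Delta, gny and Nckx30C. Kr-h1 lay at 40.8 to 102 FPKM in JH3 24 h libraries and 14 to 40.7 FPKM in JH3 baseline libraries, so the highest JH3 baseline value and the lowest JH3 24 h value nearly met. LOC105192299 was the gene below, and the other 7 overlapped. For 16 of 20 the JH3 baseline mean was above the 20E baseline mean, which held for 48.1% of all genes; choosing genes low in the 20E baseline leans this count upward.

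**Figure D4:**
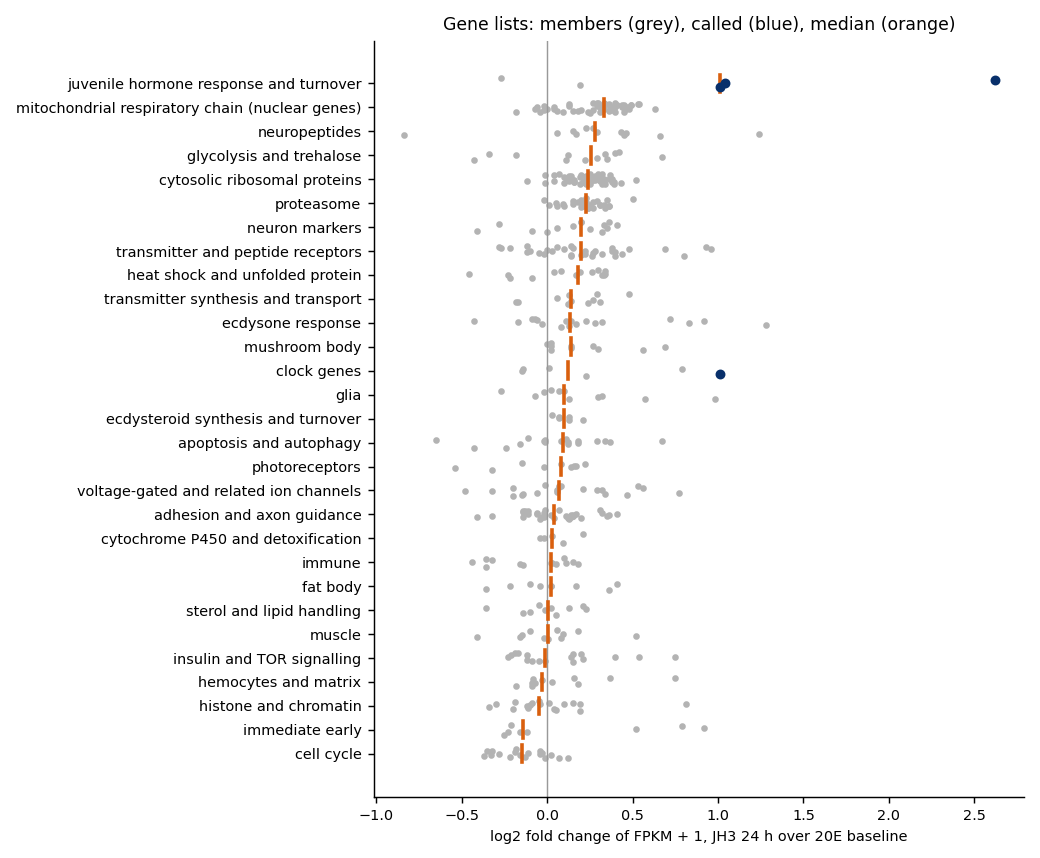
Log2 fold changes, JH3 24 h over 20E baseline, of the tested members (grey) of 29 gene lists, with called members in blue and the list median in orange. Called members appear in the juvenile hormone and clock lists only; the respiratory chain median is 0.33 and the cell cycle median -0.15.

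Other lists held no called gene. The nuclear respiratory chain genes had a median of 0.33 with 44 of 51 above 0, and the cytosolic ribosomal proteins 0.24 with 54 of 57 above 0, against 5178 of 9873 genes tested; 9 and 0 of them had an unadjusted p under 0.05, beside 1159 of the 9873. 20E baseline replicate 4 was the lowest library for both lists: ribosomal sums were 4035 to 6573 FPKM in JH3 24 h libraries and 2242 to 7408 FPKM in 20E baseline libraries, and within the third run the ribosomal median was 1.07. Neuron markers had a median of 0.20, with summed levels of 887 to 1097 FPKM in JH3 24 h libraries and 572 to 1260 FPKM in 20E baseline libraries; within the third run their median was -0.42. Receptors for transmitters and peptides had a median of 0.20 over 33 genes, led by the muscarinic receptor mAChR-A at 0.96 (adjusted p = 0.101). Neuropeptides summed to 153 to 326 FPKM in JH3 24 h libraries and 80.4 to 138 FPKM in 20E baseline libraries, with a median of 0.28 over 12 genes; spab, the largest change at 1.24 (adjusted p = 0.312), lay at 109, 252 and 136 FPKM in JH3 24 h libraries and at 48.7 to 69.5 FPKM in 20E baseline libraries. Glia markers had a median of 0.10, and 0.54 within the third run; their summed levels of 267 to 327 FPKM in JH3 24 h libraries did not overlap those of 200 to 243 FPKM in 20E baseline libraries. Of the 11 glia markers 2, drpr and Gs2, had all 3 JH3 24 h libraries above all 5 baseline libraries, which held for 3.50% of all genes tested. Their changes were 0.98 (adjusted p = 0.158) and 0.57 (0.354), while the groups of repo overlapped. Muscle genes had a median of 0.0046 and cell cycle genes -0.15, and the lists not named here had medians between -0.14 and 0.25. The part of these shifts in the 24 calls was not tested.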

How the data were processed

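RNA-seq levels of 35 primary neuronal culture libraries in 8 groups were used, assigned from the sample titles, with the run read from the sample descriptions. The authors deposited FPKM values per gene and library; bcl2fastq, STAR, featureCounts and DESeq2 are named in the submitters' processing notes with no version. No genome build is given in the sources used here, and coordinates are left out. Names were matched to RefSeq (assembly Hsal_v8.6): 13989 of 14001 identifiers matched and 4117 had a symbol. No sequence is printed.

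The deposited FPKM values fell on whole-read steps for 13014 genes (100.0% of nonzero values within 0.03 of a whole read), giving depths of 5937979 to 22650403 reads. Log2(FPKM + 1) was fitted with limma 3.58.1 (R 4.3.3), with terms for group and sequencing run across the 35 libraries, trended and robust prior, Benjamini-Hochberg adjustment over 9873 genes. Fold changes on this scale understate low genes. Deviations of same-numbered libraries of the 2 groups correlated at 0.13, 0.37 and 0.64, so the replicate number was also used as a block. Correlations of differently numbered libraries are not given beside these, and no label says what a number shares. The 13 replicate pairs differed beyond sampling noise (chi-square per gene 26.7 to 177).

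Genes were named by a rule: called genes with a symbol, a mean of at least 2 FPKM and separated groups, up to 12 each way, 19 hormone genes whatever they did (Met and tai had no matched symbol), and up to 5 called members of each of 29 lists. The members, lists and alternatives were chosen with earlier results of these data known. Simulated data for JH3 24 h against 20E baseline held 200 changed genes among 9873, drawn from genes with a mean log2(FPKM + 1) above 2. Of genes changed by 0.5, 1 and 2 on the log2 scale, 34.3%, 74.6% and 95.5% passed. Unchanged genes made up 9.33% of calls. Noise was drawn independently for each gene and library, so shifts shared by many genes were left out. These shares may therefore not hold in the real libraries. P-values measure the spread between these cultures. Alternatives were other pseudocounts, filters and scalings, no run term or 2 sets of runs, the third run alone, the compared groups alone, library weights, the replicate block, each library's trend with gene length as a covariate, voom on recovered reads (added after seeing the data), and leaving out each library in turn.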

Additional observations from a re-analysis of the deposited data

Results flagged for a closer look

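Among 148 groups of values examined, 6 had a library far from its fellows, and chance flags about 1 in 20 such groups. These were Scp2 at 30.2 FPKM in 20E baseline replicate 1, Glut4EF at 53.1 FPKM in JH3 baseline replicate 2, Delta at 10.8 FPKM in 20E baseline replicate 3, Nckx30C at 20.2 FPKM and br at 21.7 FPKM in 20E baseline replicate 4, and LOC105184447 at 5.27 FPKM in JH3 baseline replicate 3.

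Changes at 24 h of JH3 that differed from those at 24 h of 20E were 2.02 for LOC105192299, 1.81 for LOC105185491, 2.30 for LOC112590514, 2.42 for Scp2, 1.35 for Pino, 1.09 for cwo, 1.72 for LOC105180572, 2.02 for Glut4EF, 1.06 for Nckx30C, 1.99 for LOC105192706 and 2.68 for LOC105190298 on the log2 scale. Downward differences were -0.93 for LOC105186388, -0.75 for LOC105184447, -1.06 for LOC105181341 and -0.85 for LOC112589038. Between 24 h and 6 h of JH3, LOC105192351 differed by 0.99 and LOC112590514 by 2.06. All of these differences contain the 24 h levels by which the genes were chosen, which leans them the same way. No explanation was weighed for any of these.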

How the results depend on the processing

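Beside the 24 genes called after 24 h of JH3, the count was 7 with only the compared groups and no run term, 0 with those groups and a run term, 15 with quantile normalization, 61 with no run term, 51 with 2 sets of runs, 994 within the third run, 55 with library weights, 15 with the replicate block and 236 with the length trend as a covariate. It stayed within 1.5 times under pseudocounts of 0.1 (23) and 0.5 (25), other filters and median-ratio rescaling (24). It also did so with limma's voom on recovered reads (24, of which 21 were among the 24 main calls), an alternative chosen after seeing the data. The deposited values already followed size factors from median ratios between libraries (spread of their product with the library factors 0.241%, against 8.3% for total reads). Rescaling by median ratios could therefore move little. Leaving out each library in turn gave 12 (without JH3 24 h replicate 2) to 54 (without its replicate 1). Of the 24 calls, 10 held in all 8 of those fits.

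For 24 h against 6 h, beside 2 calls, pseudocount 0.1 gave 1, a filter at 5 FPKM 1, only the compared groups 0 and 0, no run term 8, the third run 0 and library weights 5, and leaving out a library gave 1 to 32. For the difference between switches, beside 298, only the compared groups gave 186 and 196, library weights 751 and the length covariate 635, and leaving out a library 195 to 399. The third-run fit of that difference could not be made, since it holds no JH3 baseline library. The planned edgeR test was not run on FPKM values.

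Some uncalled values turned sign. Ecr was 0.11 with library weights, E75 -0.06 with quantile normalization and -0.04 with weights, Hr39 0.03 with 2 sets and Crz -0.04 with the replicate block. For br these were 0.14 without a run term, 0.10 with 2 sets and 0.13 with weights. With the run term in the compared groups and in the third run Hr3 was -0.49, Hr4 -0.63 and E23 -0.53, and with quantile normalization they were -0.04, -0.01 and -0.01. E23 was -0.0037 with the length covariate, and the switch difference of LOC105185673 -0.0011 with weights. Leaving out a library moved Ecr between -0.22 and 0.11, E75 between -0.14 and 0.24, br between -0.44 and 0.39, Hr3 between -0.01 and 0.40, Hr4 between -0.06 and 0.51, Hr39 between -0.17 and 0.09, E23 between -0.13 and 0.39 and Crz between -0.12 and 0.22. The cause was not tested.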

Other observations

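Of the Osiris genes, an insect family of membrane proteins, Osi18 lay at 1.07, 62.5 and 7.63 FPKM in JH3 24 h libraries and at 0 to 0.809 FPKM in 20E baseline libraries. Osi19 lay at 1.63, 88.8 and 10.6 FPKM and Osi20 at 1.18, 54.1 and 4.67 FPKM in JH3 24 h libraries, against at most 1.84 FPKM for Osi19 and 0.332 FPKM for Osi20 in 20E baseline libraries. The 3 genes summed to 3.88 FPKM in JH3 24 h replicate 1 and to 22.9 FPKM in JH3 24 h replicate 3. Replicate 2 was the highest JH3 24 h library for each gene. At 6 h of JH3 the 3 genes summed to 37.2 FPKM in replicate 3. In JH3 6 h replicates 1, 2, 4 and 5 they summed to 1.24, 0.0849, 0.171 and 3.49 FPKM. The 3 genes summed to at most 2.98 FPKM in any 20E baseline library. In the order Osi18, Osi19 and Osi20 their log2 fold changes were 2.92, 3.11 and 2.83, with adjusted p of 0.0698, 0.0762 and 0.0545, so none passed. These genes were chosen after their values were seen.

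Among the genes just outside the threshold were Oatp26F at 1.08 (adjusted p = 0.0542), Ald1 at 0.67 (0.0545) and numb at 0.61 (0.0630). They too were chosen after their values were seen. The gene numb, a Notch inhibitor in flies, lay at 128, 114 and 126 FPKM in JH3 24 h libraries and at 78.2, 74.7, 66.9, 83.9 and 87.9 FPKM in 20E baseline libraries.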
